A study of Mus musculus with 12 samples.

Results

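The collagen chain genes are the mouse genes whose symbol is Col, a type number, the letter a and a chain number, and 43 of the 16152 genes in the deposited counts table matched that pattern. A further member, *Col19a1*, had CPM values but no row in the counts table, so 44 chains are accounted for. The series sequenced whole lung RNA of male and female C57BL/6 mice at E15.5 and E18.5 (embryonic days) and at P5 and P8 (postnatal days), with 3 libraries at each time-point and no treatment or transgene in any group. The 3 libraries of a time-point came from littermates, so litter and age cannot be told apart, and the p-values measure the spread between littermates. Between 41337443 and 53901957 reads were counted per library.

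Collagens are trimers of alpha chains wound into a triple helix. Fibrillar types I, III and V give the interstitium of the lung its tensile strength, whereas type IV forms the sheet-like network of the basement membrane that lies between the alveolar epithelium and the capillary endothelium. Other types form beaded filaments, decorate the surface of fibrils or remain anchored in the cell membrane. In whole lung RNA, fewer cells of a type and less RNA per cell cannot be told apart.

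The 6 type IV genes lie as 3 pairs that start back to back and are read in opposite directions. In the Gencode vM21 annotation of GRCm38, *Col4a1* and *Col4a2* start on chromosome 8 at 11312826 and 11312805, so their first exons overlap by 22 bases. *Col4a6* and *Col4a5* start on chromosome X at 141474076 and 141475385, with 1308 bases between them. *Col4a4* and *Col4a3* start on chromosome 1 at 82586849 and 82586921. The 71 bases between the last pair, chr1:82586850-82586920, are shown because the 2 genes on either side had the largest rises of the type IV genes after birth. They are upstream of both genes, belong to no exon of either, and are written along the + strand (sequence from RefSeq, build GRCm38.p6), with capitals where CACCC occurs.
Col4a4 to Col4a3: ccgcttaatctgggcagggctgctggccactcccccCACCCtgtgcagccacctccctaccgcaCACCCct
The search covered both strands for the letters CACCC, for the CCAAT box, for the Sp1 core GGGCGG and for the TATA core TATAA, which do not overlap one another. CACCC was found in 2 copies and the other 3 motifs were not found in these letters. Among the 32851 promoters of the RefSeq table, the 71 bases before the start held any copy of CACCC, on either strand, in 20.3%. For the CCAAT box this share was 13.3%, for the Sp1 core 20.7% and for the TATA core 8.14%. The share with 2 copies was not counted.

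Levels are given as CPM, counts scaled to 1e6 reads on genes after scaling between libraries by TMM (trimmed mean of M values). Changes are log2 fold changes with their standard error and Benjamini-Hochberg FDR from edgeR's quasi-likelihood test over all 15994 genes tested. A gene is said to have risen or fallen when its log2 fold change was above 1 in size and its FDR was under 0.05, and all 43 counted members were tested. From E15.5 to E18.5, 2 of the 43 passed, 1 higher and 1 lower (4.65% of the members, against 3.04% of all genes tested, 1.59% higher and 1.46% lower). From E18.5 to P5, across birth, 21 passed, 8 higher and 13 lower (48.8%, against 26.8% of all genes, 17.5% higher and 9.34% lower). From P5 to P8, 8 passed and all were higher (18.6%, against 2.96%, 2.88% higher and 0.0875% lower). From E15.5 to P8, 17 passed, 12 higher and 5 lower (39.5%, against 32.3%, 20.9% higher and 11.5% lower). The first and last of these shares lie near those of all genes. By FDR alone, 10 members passed before birth, 32 across birth and 38 over the whole span, beside 21.5%, 71.1% and 76.3% of all genes. The median log2 fold change of the members was 0.0077, -0.13, 0.41 and 0.34 in these 4 comparisons, beside -0.0084, -0.0024, -0.0012 and -0.024 over all genes. The comparisons share libraries at each shared time-point.

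**Figure D1:**
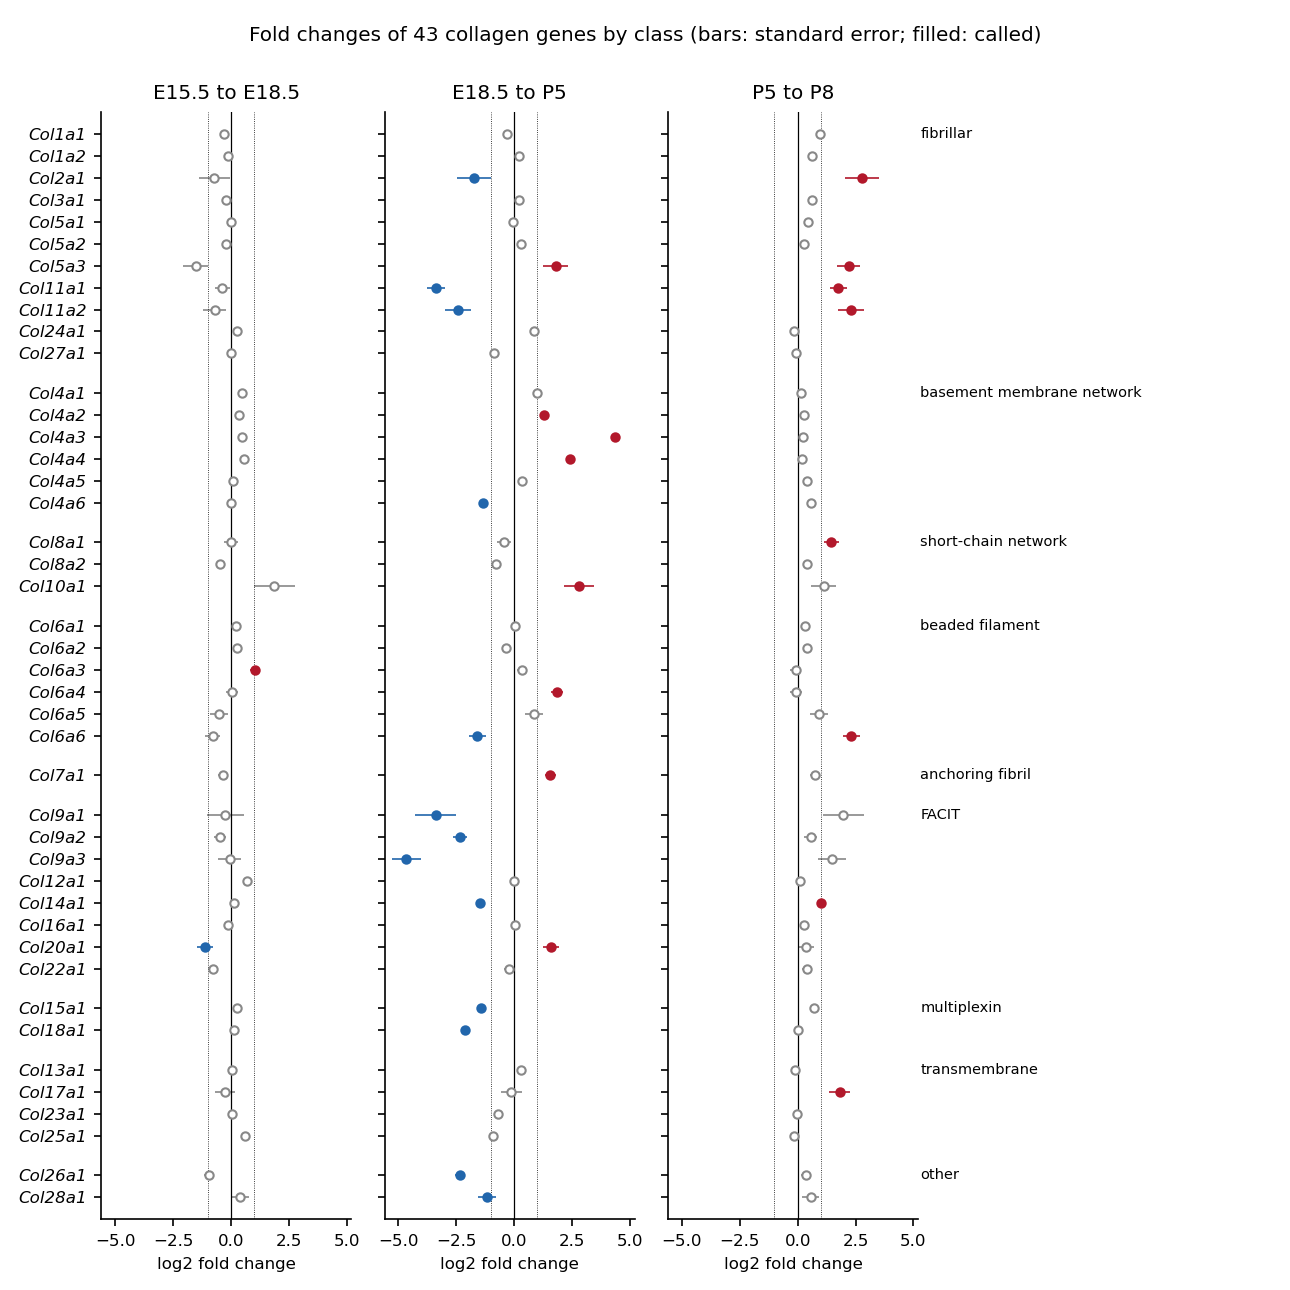
Log2 fold change (x axis) of the 43 tested collagen genes, ordered by structural class, in the 3 successive comparisons; points are estimates, bars the standard error, filled points the genes past both cutoffs (red higher, blue lower) and dotted lines the fold change cutoffs. The largest shifts lie between E18.5 and P5, where 8 genes rose and 13 fell, and from P5 to P8 all 8 filled points lie to the right.

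Reads on collagen genes made up 0.979 ± 0.118% of all counts at E15.5 (SD, n = 3) and 0.995 ± 0.0503% at E18.5, and after birth 1.13 ± 0.0527% at P5 and 1.52 ± 0.0461% at P8. The type IV genes took 17.5 ± 1.1% of the collagen counts at E15.5 and 22.6 ± 1.1% at E18.5, but 41.3 ± 1.79% at P5 and 35.9 ± 2.05% at P8. *Col1a1*, *Col1a2* and *Col3a1* together took 46.2 ± 0.783%, 38.9 ± 1.35%, 34.6 ± 1.36% and 41.8 ± 2.14%. The share of type IV therefore passed that of types I and III at P5 in this measure, which counts reads and not molecules. Per kb of transcript, *Col3a1* was the most abundant chain at E15.5, E18.5 and P8 (349 ± 23.4, 302 ± 10.1 and 529 ± 6.33 CPM per kb), and *Col4a1* at P5 (406 ± 28.2). The order depends on the length used, since with all annotated exons *Col4a1* was above *Col3a1* also at E18.5 (185 against 171 CPM per kb) and P8 (396 against 299.8).

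The type IV chains moved in different directions across birth. *Col4a3*, *Col4a4* and *Col4a2* rose from E18.5 to P5 and *Col4a6* fell. *Col4a3* and *Col4a4* encode chains that assemble with the *Col4a5* product into the network typical of the alveolar and glomerular basement membranes, and *Col4a1* and *Col4a2* encode the chains of the widespread network.

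*Col4a3* was at 9.01, 7.78 and 9.45 CPM in the 3 E15.5 libraries, 13.6, 13.6 and 8.89 at E18.5, 276, 221 and 227 at P5, and 294, 249.7 and 317 at P8. All 6 postnatal libraries lay above all 6 embryonic libraries. Across birth this was a 20.1-fold rise, 4.33 ± 0.17 on the log2 scale (± standard error, as for every log2 fold change, edgeR FDR = 1.4e-09), and the largest of any collagen gene in that comparison. Its partner *Col4a4* was at 38.8, 29.3 and 41.5 CPM at E15.5, then 60.5, 56.5 and 47.3 at E18.5, 326, 282 and 260.1 at P5, and 329, 288 and 379 at P8. The groups before and after birth did not overlap, and the log2 fold change was 2.40 (± 0.15, edgeR FDR = 3.3e-08).

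*Col4a5*, the third chain of that trimer, was already present before birth, at 135, 113 and 139.7 CPM at E15.5 and then 141, 137 and 130.5 at E18.5. It was at 189, 164 and 164 CPM at P5 and 237, 214 and 235 at P8. Its log2 fold changes of 0.34 across birth and 0.41 from P5 to P8 passed the FDR threshold below the fold change cutoff (edgeR FDR = 0.0033 and 0.0085). Per kb of transcript, the ratio of *Col4a3* to *Col4a4* was 0.285 ± 0.0242 (SD, n = 3) at E15.5 and 0.257 ± 0.0321 at E18.5, then 0.986 ± 0.0531 at P5 and 1.02 ± 0.0336 at P8. The ratio of *Col4a5* to *Col4a4* went the other way, from 5.51 ± 0.401 and 3.88 ± 0.345 to 0.922 ± 0.0439 and 1.07 ± 0.102. The 3 chains were thus unequal before birth and near a ratio of 1 after it. With the length of all annotated exons in place of the main transcript, the ratio of *Col4a3* to *Col4a4* was 0.889 at P5 and 0.922 at P8, and that of *Col4a5* to *Col4a4* 0.942 and 1.1.

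*Col4a1* was at 1044, 790.3 and 1153 CPM at E15.5, then 1492, 1426 and 1223 at E18.5, 2894, 2636 and 2531 at P5, and 2985, 2797 and 3089 at P8. Its log2 fold change across birth, 0.96 (± 0.12, edgeR FDR = 1.7e-05), lay just under the cutoff, and over the whole span it rose by 1.57 (edgeR FDR = 1.7e-07). *Col4a2* was at 476, 358 and 536 CPM at E15.5, then 632, 602 and 523 at E18.5, 1552, 1447 and 1269 at P5, and 1784, 1595 and 1838 at P8. It lay just over the cutoff across birth, at 1.28 (± 0.13, edgeR FDR = 2.8e-06). Per kb, there were 2.3 ± 0.0146 *Col4a1* transcripts for each of *Col4a2* at E18.5 and 1.66 ± 0.0434 at P8, with no overlap between the 3 libraries of each.

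*Col4a6*, whose chain joins that of *Col4a5* in basement membranes around smooth muscle and airway epithelium, went down. It was at 50.0, 36.7 and 48.4 CPM at E15.5, then 49.1, 43.8 and 44.2 at E18.5, 21.3, 17.5 and 14.7 at P5, and 26.9, 25.8 and 26.4 at P8. The log2 fold change across birth was -1.36 (± 0.13, edgeR FDR = 1.7e-06), and the P8 libraries lay above the P5 libraries by 0.57 (edgeR FDR = 0.015), under the fold change cutoff. Although *Col4a5* and *Col4a6* are neighbours that start back to back, the ratio of *Col4a6* to *Col4a5* per kb went from 0.330 ± 0.0139 at E18.5 to 0.101 ± 0.0118 at P5.

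Markers of epithelial and endothelial cells moved over the same interval. The summed level of 6 of 6 AT1 (alveolar type 1 epithelial cell) markers was 664 to 814 CPM at E18.5 and 2700.3 to 2918 at P5, and that of 4 of 4 endothelial markers was 943 to 1055 and 2152 to 2297. The AT1 sum was mostly *Cav1* at E18.5 (536 to 633 CPM), and *Ager* and *Cav1* at P5 (1202 to 1384 and 991 to 1065 CPM). Its members rose by different amounts, and *Aqp5* was at 0.918 to 1.67 CPM at E18.5 and 174 to 202 at P5. The 4 AT2 (alveolar type 2 epithelial cell) markers summed to 1372 to 2360.4 CPM at E18.5 and 16889.6 to 20178 at P5. The sum of the 4 general lung epithelium markers went down, from 802 to 957 CPM to 556 to 613. Of these, *Epcam* was at 228 to 243 CPM at E18.5 and 71.5 to 80.5 at P5. *Cdh1* overlapped between the groups, at 222 to 277 and 200 to 243 CPM. The part of all these cells in the type IV result was not tested.

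**Figure D2:**
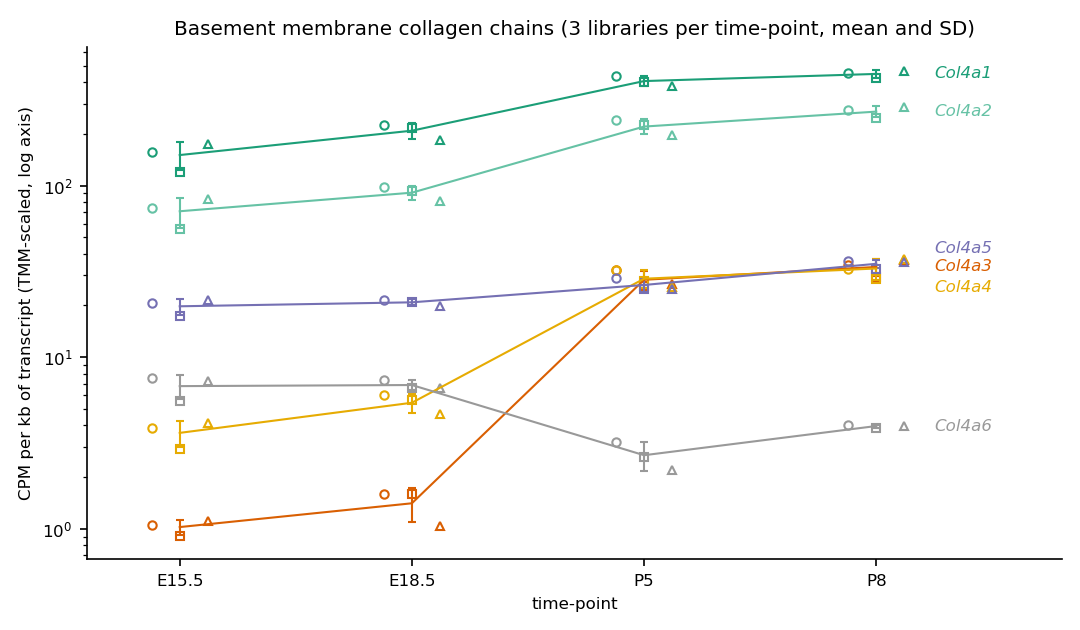
CPM per kb of the main transcript (y axis, log scale) of the 6 type IV chains at each time-point; circles, squares and triangles are replicates 1, 2 and 3, and lines join the means with bars of 1 SD (n = 3). *Col4a3* and *Col4a4* climb from 1.41 and 5.42 CPM per kb at E18.5 to 28.2 and 28.6 at P5, where they meet *Col4a5* at 26.3, while *Col4a6* drops.

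Of the 11 fibrillar chains, 1 rose and 3 fell across birth, beside 17.5% and 9.34% of all genes. From P5 to P8, 4 of the 11 rose, beside 2.88% of all genes. The major chains of types I and III were not among those that rose or fell. They shifted little across birth and were higher at P8, below the fold change cutoff but past the FDR threshold. P8 replicates 1 and 2 stand apart from replicate 3 in thymus and skeletal muscle marker sums and in some cartilage markers, such as *Acan* and *Cnmd*. P5 replicate 3 also held skeletal muscle markers (154.9 CPM, beside 135.1 in P8 replicate 2). Without those 2 P8 libraries, the log2 fold changes from P5 to P8 were 0.71 for *Col1a1* and 0.53 for *Col1a2*, below 0.96 and 0.63 with all libraries. That of *Col3a1* was 0.59, beside 0.60 with all libraries. In the same fit the 4 fibrillar chains that rose from P5 to P8 had smaller or reversed values. They were -0.79 for *Col2a1*, 0.44 for *Col11a1*, -0.05 for *Col11a2* and 0.72 for *Col5a3*, against 2.79, 1.76, 2.31 and 2.20 with all libraries. These sizes rest on 1 P8 library. *Col1a1*, the larger contributor to the type I trimer, was at 1291, 932 and 1354 CPM at E15.5, then 1046, 955 and 934 at E18.5, 787, 873 and 717 at P5, and 1874, 1458 and 1288 at P8. Every P8 library lay above every P5 library, with a log2 fold change of 0.96 (± 0.15, edgeR FDR = 0.0029). *Col1a2*, the other type I chain, was at 1317, 1103 and 1344 CPM at E15.5, then 1201, 1119 and 1086 at E18.5, 1331, 1382 and 1205 at P5, and 2239, 1939.8 and 1872 at P8 (P5 to P8 log2 fold change 0.63 ± 0.09, edgeR FDR = 0.0022).

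*Col3a1*, whose product is a homotrimer found in distensible tissues, had the tightest replicates of the 3. It was at 1997, 1792 and 2033 CPM at E15.5, then 1712, 1618 and 1718 at E18.5, 1910.2, 2047 and 1858 at P5, and 2974, 2950.1 and 2904 at P8. Its log2 fold changes were -0.21 before birth, 0.20 across birth and 0.60 from P5 to P8, and each passed the FDR threshold (edgeR FDR = 0.04, 0.013 and 0.00036). The 2 type I chains did not keep a fixed proportion. The ratio of *Col1a1* to *Col1a2* per kb was 0.852 ± 0.0783 at E15.5 and 0.777 ± 0.00810 at E18.5, then 0.547 ± 0.0199 at P5 and 0.684 ± 0.0674 at P8 (SD, n = 3), and the E18.5 and P5 libraries did not overlap. The size of that ratio depends on the transcript length used (1.63 and 1.15 at E18.5 and P5 with all annotated exons). A change of length scales all libraries by the same factor, so it cannot alter the course.

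The summed level of 7 of 7 lung fibroblast markers was 929 to 1063 CPM at E18.5, 1974 to 2236 at P5 and 1818 to 1983 at P8. That of 5 of 5 smooth muscle and myofibroblast markers was 828 to 906 CPM at P5 and 830.1 to 913 at P8. The fibroblast sum was mostly *Fn1* (1241 to 1507 CPM at P5 and 1158 to 1328 at P8), and its members differed in course. *Pdgfra* was at 173 to 177 CPM at P5 and 113 to 138 at P8, lower with no overlap. *Tcf21* was also lower with no overlap, at 305 to 355 and 216 to 268 CPM. *Dcn*, which encodes the collagen-binding proteoglycan decorin, was at 24, 37.8 and 43.4 CPM at P5 and 122, 149 and 65.6 at P8, with no overlap, and *Lum* was at 1.52 to 10.2 CPM at P5 and 27.5, 31.9 and 4.91 at P8. In the muscle list, *Des* was at 109 to 140.5 CPM at P5 and 139.6 to 186 at P8, and *Acta2* at 526 to 576 and 503 to 563. The 4 mesothelial markers summed to 124 to 212 CPM at P5 and 519 to 571 at P8, and the part of all these cells in the result was not tested.

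*Col5a1* and *Col5a2*, which encode the type V chains that start and limit the width of type I fibrils, were also higher at P8, by less. *Col5a1* was at 269, 223 and 313 CPM at E15.5, then 294, 261 and 259 at E18.5, 259.9, 271 and 248 at P5, and 366, 347 and 338 at P8. Its log2 fold change from P5 to P8 was 0.43 (edgeR FDR = 0.015) and that of *Col5a2*, at 404 ± 34.7 and 482 ± 16.5 CPM, was 0.25 (edgeR FDR = 0.028). *Col5a3*, the third type V chain, was scarce and rose across birth and from P5 to P8, from 0.782 ± 0.116 CPM at E18.5 to 2.72 ± 0.673 at P5 and 12.5 ± 6.99 at P8. Its P8 libraries were uneven, at 16, 17.1 and 4.45 CPM. With P8 replicate 3 alone, its log2 fold change from P5 to P8 was 0.72, against 2.20 with all libraries. *Col24a1*, a minor fibrillar chain, was at 7.07 ± 0.761 CPM at E18.5 and 12.8 ± 0.326 at P5, and *Col27a1*, a chain of fibrils outside the classical group, at 128 ± 0.775 and 68.6 ± 9.24. Their log2 fold changes of 0.85 and -0.90 passed the FDR threshold under the fold change cutoff (edgeR FDR = 0.00089 and 7.8e-06).

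**Figure D3:**
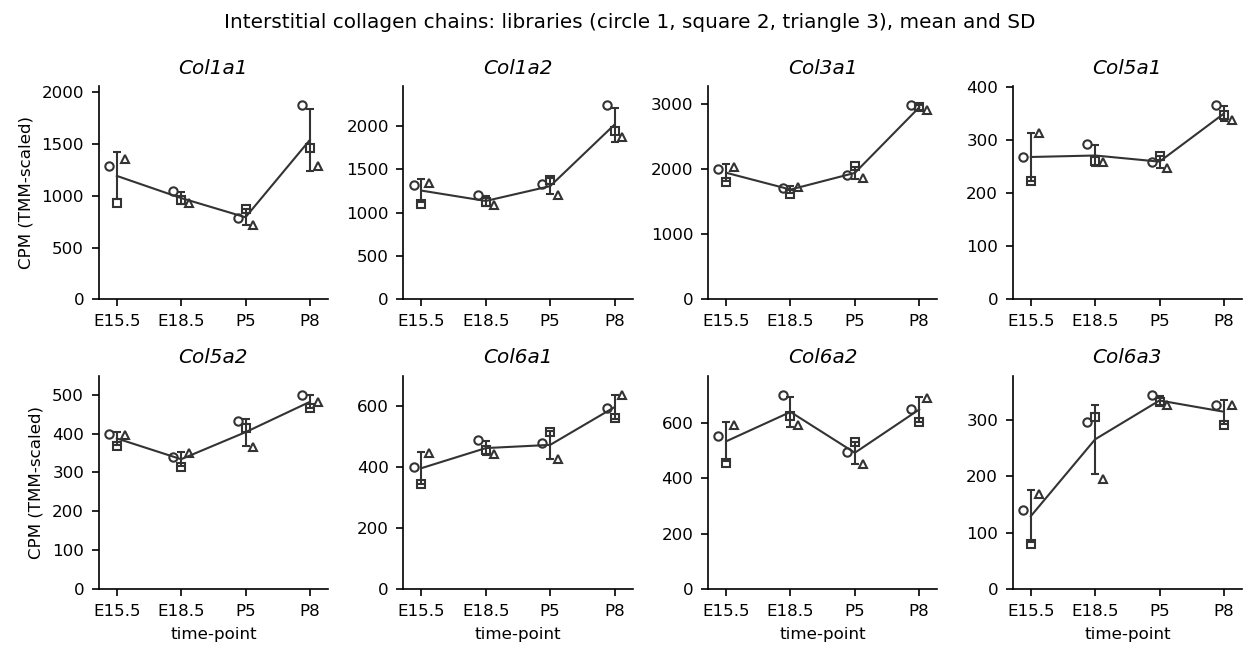
CPM (y axis, starting at 0) of 8 interstitial collagen genes at the 4 time-points; circles, squares and triangles are replicates 1, 2 and 3, and lines join means with bars of 1 SD (n = 3). *Col1a1*, *Col1a2*, *Col3a1*, *Col5a1* and *Col5a2* are highest at P8, while *Col6a3* goes from 129.5 ± 45.7 CPM at E15.5 to 335 ± 8.58 at P5.

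Type VI collagen forms beaded microfibrils around cells from 1 chain each of *Col6a1*, *Col6a2* and *Col6a3* or of a relative of the last. *Col6a1* was at 401, 343 and 446 CPM at E15.5, then 488, 456 and 443 at E18.5, 478, 515 and 425 at P5, and 595, 559.6 and 636 at P8. *Col6a2* was at 552, 456 and 594 CPM at E15.5, then 701, 627 and 594 at E18.5, 496, 529.9 and 452 at P5, and 652, 604 and 692 at P8. The P8 libraries of both genes lay above their P5 libraries, with log2 fold changes of 0.34 and 0.40 (edgeR FDR = 0.035 and 0.021), and across birth *Col6a2* alone passed the FDR threshold, at -0.38 (edgeR FDR = 0.005).

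*Col6a3* was the 1 collagen gene that rose before birth. It was at 141, 79.3 and 169 CPM at E15.5, then 297, 305 and 196 at E18.5, 344, 333 and 327 at P5, and 327, 291 and 327 at P8. Its log2 fold change before birth was 1.04 ± 0.22 (edgeR FDR = 0.008), and E15.5 replicate 2 was the lowest library. That call was lost without E15.5 replicate 2, E18.5 replicate 1 or E18.5 replicate 2, where the log2 fold change went as low as 0.78. Over the whole span it rose by 1.28 (edgeR FDR = 0.0002).

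*Col6a4*, *Col6a5* and *Col6a6* encode relatives of the alpha 3 chain and lie side by side on the minus strand of chromosome 9, from 105687809 to 106096783. All 3 were scarce, and they did not move together. *Col6a4* was at 2.24, 1.82 and 3.37 CPM at E15.5, then 1.94, 3.53 and 2.22 at E18.5, 11.2, 8.04 and 8.31 at P5, and 9.37, 7.63 and 9.15 at P8, and it rose across birth by 1.84 (± 0.27, edgeR FDR = 5e-05). *Col6a5* was between 0.490 and 1.98 CPM in the first 3 time-points and at 2.71, 2.67 and 3.17 CPM at P8, and it rose from E15.5 to P8 by 1.27 (edgeR FDR = 0.0083). *Col6a6* was at 7.09, 6.13 and 5.59 CPM at E15.5, then 4.93, 3.10 and 2.84 at E18.5, 0.831, 1.77 and 1.02 at P5, and 6.59, 7.91 and 3.52 at P8. It fell across birth by 1.59 on the log2 scale (edgeR FDR = 0.0014) and rose from P5 to P8 by 2.32 (edgeR FDR = 0.0026), so that P5 was its lowest time-point.

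The chains best known from cartilage, types II, IX and XI, fell together across birth. All 6 of *Col2a1*, *Col9a1*, *Col9a2*, *Col9a3*, *Col11a1* and *Col11a2* passed both cutoffs with a lower level at P5. *Col9a3*, a chain of the type IX heterotrimer on fibril surfaces, was at 34.2, 37.2 and 34.7 CPM at E15.5 and then 34.3, 34.2 and 33.4 at E18.5, and at 0.435, 2.5 and 1.20 CPM at P5 and 3.91, 6.50 and 0.783 at P8. Its log2 fold change across birth, -4.66 (± 0.63, edgeR FDR = 2.7e-05), was the largest decrease of any collagen gene. *Col9a1* was at 18.1, 20.6 and 16.2 CPM at E15.5, then 15, 17.4 and 14.2 at E18.5, 0.257, 3.17 and 1.08 at P5, and 7.44, 9.53 and 0.267 at P8 (E18.5 to P5 log2 fold change -3.40 ± 0.90, edgeR FDR = 0.0047). *Col9a2* was at 36.9, 39.7 and 38.1 CPM at E15.5, then 30.9, 23 and 29.7 at E18.5, 4.23, 6.71 and 5.59 at P5, and 10.1, 10.1 and 4.13 at P8. No P5 library of these 3 genes reached the lowest E18.5 library.

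*Col11a1*, a chain of the thin fibrils of cartilage, was at 43.8, 39.1 and 47.1 CPM at E15.5, then 38.0, 27.5 and 35.0 at E18.5, 2.59, 4.39 and 2.76 at P5, and 16, 12.5 and 4.34 at P8. Across birth it fell by 3.38 on the log2 scale (± 0.38, edgeR FDR = 5.7e-06), and the groups did not overlap. *Col11a2* was at 20.2, 20.2 and 25.3 CPM at E15.5, then 12.6, 15 and 12.5 at E18.5, 1.56, 3.03 and 2.80 at P5, and 21.3, 13 and 2.35 at P8. *Col2a1*, the main cartilage chain, was at 46.6, 41.3 and 52.7 CPM at E15.5, then 31.0, 20.6 and 34.0 at E18.5, 5.22, 13.5 and 7.35 at P5, and 65.5, 108 and 4.97 at P8. Its fall across birth, by 1.73 on the log2 scale, was close to the threshold (edgeR FDR = 0.048), and 9 of the 12 fits that left out 1 library lost it.

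The 3 P8 libraries disagreed on these chains: replicates 1 and 2 were high and replicate 3 lay within or just below the range of the P5 libraries. The members of the cartilage list did not share 1 course. *Acan*, the cartilage proteoglycan, was at 5.51, 6.33 and 0.497 CPM in the 3 P8 libraries and between 0.0665 and 1.09 in the other 9, and *Cnmd* was at 2.68, 2.88 and 0.0382 CPM at P8, 0.0593 to 0.557 at P5 and 3.0 to 7.36 before birth. *Sox9*, which marks both cartilage and the embryonic distal lung epithelium, was at 37.1 to 66.5 CPM before birth and 5.11 to 7.80 after it. *Chad* was at 0.428 to 0.796 CPM at E18.5, 8.55 to 18.3 at P5 and 41.6, 54.2 and 32.5 at P8, high in all 3 P8 libraries, while *Matn4* was at 40.0 to 51.1 CPM at E18.5 and 60.9 to 67.0 at P5. *Hapln1* was at 67.8 to 75.2 CPM at E18.5, 22.3 to 24.6 at P5 and 14 to 15.53 at P8. In sum, 10 of 13 cartilage markers had counts and gave 178 to 204 CPM at E18.5, 115 to 131 at P5 and 149 to 174 at P8, and *Matn1*, *Snorc* and *Ucma* had no row in the counts table. P8 replicates 1 and 2 also stood apart in the sum of 9 of 10 thymus markers (192 and 349.9 CPM, against 15.9 in replicate 3). Skeletal muscle markers, 6 of 7 with counts, summed to 538 and 135.1 CPM in these 2 libraries and 6.67 in replicate 3, and to 154.9 in P5 replicate 3. The 4 heart muscle markers summed to 222 CPM in P8 replicate 2, and to 647 and 719 CPM in E15.5 replicates 1 and 2 against 19 in E15.5 replicate 3. The part of these tissues in the collagen results was not tested.

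**Figure D4:**
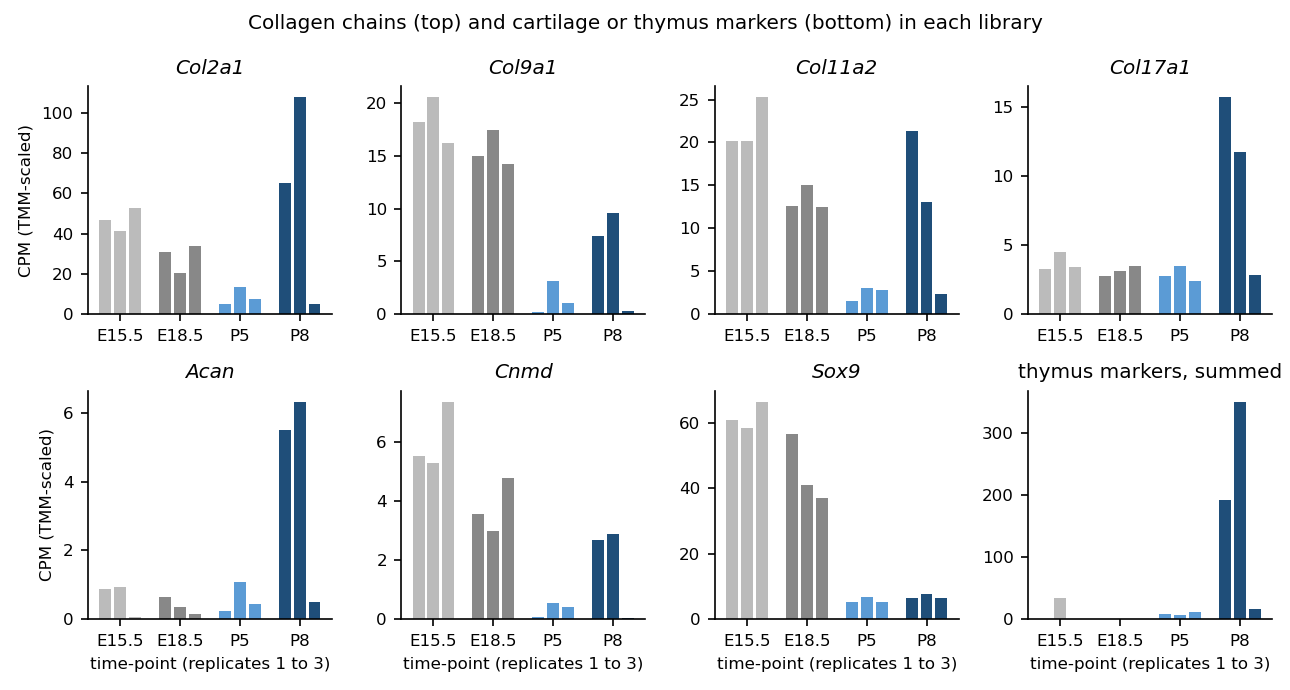
CPM (y axis, starting at 0) in each of the 12 libraries, 3 bars per time-point in the order of replicates 1 to 3, of 4 collagen chains (top) and of 3 cartilage markers and the sum of 9 thymus markers (bottom). At P8, replicates 1 and 2 are high and replicate 3 low for *Col2a1* (65.5, 108 and 4.97 CPM), *Col9a1*, *Col11a2*, *Col17a1*, *Acan*, *Cnmd* and the thymus markers, whereas *Sox9* differs little among them.

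The 8 genes that rose from P5 to P8 were *Col2a1* (log2 fold change 2.79, edgeR FDR = 0.024), *Col6a6* (2.32), *Col11a2* (2.31, FDR = 0.017), *Col5a3* (2.20), *Col17a1* (1.81), *Col11a1* (1.76), *Col8a1* (1.46) and *Col14a1* (1.02). With P8 replicates 1 and 2 left out, which leaves 1 P8 library that is assumed to vary like the other groups, none of them passed both cutoffs (edgeR; 14 members had an unadjusted p under 0.05, 13 of them higher). In that fit *Col2a1*, *Col11a2* and *Col17a1* had log2 fold changes of -0.79, -0.05 and -0.0043. *Col3a1* was at 0.59 and *Col14a1* at 0.98, close to their values with all libraries, and these 2 passed the FDR threshold (edgeR FDR = 0.015 and 0.033). In the same fit 0.324% of all genes passed both cutoffs. By FDR alone, 20 of 43 members were higher at P8 with all 12 libraries and none was lower, against 9.75% of all genes higher. *Col6a6*, *Col8a1* and *Col11a1* passed both cutoffs in each of the 12 fits that left out 1 library. The count of 8 went to 3 without P5 replicate 1, 4 without P5 replicate 3, 5 without P8 replicate 1, 4 without P8 replicate 2 and 12 without P8 replicate 3.

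Among the other chains that attach to fibril surfaces (FACIT, fibril-associated collagens with interrupted triple helices), *Col14a1* fell across birth and recovered in part. It went from 149.9 ± 17.3 CPM at E18.5 to 53.4 ± 3.37 at P5 (log2 fold change -1.49 ± 0.13, edgeR FDR = 4.8e-07) and 108 ± 6.05 at P8 (1.02, edgeR FDR = 0.00094). *Col12a1* was higher at E18.5 than at E15.5, at 55.9 ± 9.80 against 34.4 ± 8.30 CPM (log2 fold change 0.70, edgeR FDR = 0.014, under the fold change cutoff), and stayed between 45.0 and 65.1 CPM in all later libraries. *Col20a1* was at 0.716, 1.32 and 0.909 CPM at E15.5, then 0.327, 0.471 and 0.551 at E18.5, 1.21, 1.45 and 1.47 at P5, and 1.28, 1.71 and 2.33 at P8. It was the 1 collagen gene that fell before birth (log2 fold change -1.11 ± 0.34, edgeR FDR = 0.038), on 40 to 60 reads at E15.5 and 14 to 27 at E18.5, and 8 of the 12 fits that left out 1 library lost that call. It rose across birth by 1.60 (edgeR FDR = 0.0011). *Col22a1* was between 3.16 and 7.84 CPM and passed neither cutoff across birth (log2 fold change -0.23, edgeR FDR = 0.37).

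In the short-chain network class, *Col10a1*, known from hypertrophic cartilage, rose from very low levels. It was at 0.107, 0 and 0.0444 CPM at E15.5 (6, 0 and 2 reads), 0.327, 0.171 and 0.122 at E18.5, 1.5, 1.57 and 1.25 at P5, and 5.66, 2.66 and 1.15 at P8. Across birth it rose by 2.80 (± 0.65, edgeR FDR = 0.0019), and its P8 libraries straddled those of P5. *Col8a1*, a chain of the network made by vascular cells, was at 1.77 ± 0.322 CPM at P5 and 4.87 ± 1.80 at P8, with P8 replicate 3 again the lowest at 2.79. *Col8a2* was at 18.4 ± 1.24 CPM at E18.5 and 10.6 ± 0.939 at P5 (log2 fold change -0.79, edgeR FDR = 0.0014, under the fold change cutoff). *Col7a1*, the anchoring fibril chain that ties basement membrane to the stroma, rose from 1.99 ± 0.339 to 5.84 ± 0.234 CPM across birth (log2 fold change 1.56 ± 0.23, edgeR FDR = 6.9e-05) and was at 9.87 ± 1.05 CPM at P8.

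The 2 multiplexins, basement membrane proteoglycans that carry endostatin-like domains, both fell across birth while *Col4a2*, *Col4a3* and *Col4a4* rose. *Col18a1* went from 660.0, 669 and 620.5 CPM at E18.5 to 164, 152 and 136 at P5, which is -2.11 ± 0.09 on the log2 scale (edgeR FDR = 2.4e-09), and it stayed there at P8 (155 ± 6.47 CPM). Its level of 588 ± 62.5 CPM at E15.5 did not pass against E18.5 (log2 fold change 0.14, edgeR FDR = 0.24). *Col15a1* fell from 134 ± 11.4 to 49.4 ± 6.56 CPM (log2 fold change -1.45 ± 0.17, edgeR FDR = 7.4e-06) and was at 79.8 ± 15.2 CPM at P8 (0.69, edgeR FDR = 0.017). With P8 replicate 3 alone, its log2 fold change from P5 to P8 was 0.35.

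Of the 4 transmembrane collagens, 3 passed the FDR threshold across birth, near the 71.1% of all genes, with changes under the fold change cutoff. *Col13a1*, whose product sits at cell adhesion sites, was at 95.9, 97.3 and 100.3 CPM at E15.5, then 105, 105 and 90.2 at E18.5, 133, 113 and 123 at P5, and 115, 105 and 118 at P8. Across birth the log2 fold change was 0.30 (± 0.07, edgeR FDR = 0.0031), and the E18.5 and P5 libraries did not overlap. *Col25a1* was at 64.0, 43.5 and 61.4 CPM at E15.5, then 89.0, 93.3 and 75.4 at E18.5, 53.0, 39.3 and 44.5 at P5, and 40.1, 36.8 and 44.8 at P8 (E18.5 to P5 log2 fold change -0.91, edgeR FDR = 0.00014). *Col23a1* was at 147 ± 12.3 CPM at E18.5 and 89.6 ± 5.84 at P5 (-0.71, edgeR FDR = 7.4e-06). *Col17a1*, a hemidesmosome component of basal epithelial cells, was at 2.88 ± 0.559 CPM at P5 and at 15.7, 11.7 and 2.85 CPM in the 3 P8 libraries.

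The remaining chains fit none of these classes. *Col26a1* was at 33.1, 45.2 and 30.1 CPM at E15.5, then 17.4, 15.7 and 22.5 at E18.5, 3.01, 3.73 and 4.13 at P5, and 4.66, 5.90 and 3.48 at P8, lower at each step up to P5. Its log2 fold change of -2.95 from E15.5 to P8 (± 0.23, edgeR FDR = 1.2e-07) was second to that of *Col9a3* (-3.24, edgeR FDR = 0.0002) and was followed by that of *Col9a2* (-2.24). *Col28a1* fell across birth from 4.04 ± 0.862 to 1.78 ± 0.778 CPM (log2 fold change -1.18, edgeR FDR = 0.014). Over the whole span the genes that rose were *Col4a1* to *Col4a4*, *Col5a3*, *Col6a3* to *Col6a5*, *Col7a1*, *Col8a1*, *Col10a1* and *Col17a1*, and those that fell were *Col9a2*, *Col9a3*, *Col11a1*, *Col18a1* and *Col26a1*. Some of these changes depend on P8 replicates 1 and 2, without which 1 P8 library is left. Without them the log2 fold changes over this span were -3.22 for *Col2a1*, -3.20 for *Col11a2* and -6.06 for *Col9a1*. With all libraries they were 0.34, -0.84 and -1.67. Those of *Col20a1* and *Col24a1* were 1.27 and 1.20, against 0.86 and 0.95 with all libraries. Those of *Col5a3*, *Col8a1* and *Col17a1* were 1.0, 0.24 and -0.37, against 2.47, 1.02 and 1.44. With all libraries the largest increases over that span were those of *Col10a1* (5.80, from 6, 0 and 2 reads at E15.5), *Col4a3* (5.03) and *Col4a4* (3.18), and without those 2 libraries *Col10a1* (4.37) came after *Col4a3* (5.2).

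Splicing was examined for the exon events that the study's event tables assign to collagen genes: 6 events in 5 genes. The study chose them for a difference in these same libraries, so their values are a description. It also tested a subset of its events by RT-PCR (reverse transcription PCR) on independent E18.5 and P5 lung RNA, and reported that most were reproduced. *Col13a1* MmuEX0012150 and *Col6a3* MmuEX0012337 were among those tested. PSI, the percent of transcripts that include an exon, was deposited with the reads behind it. All 6 differed by at least 10 points between E18.5 and P5 with no overlap between libraries, as did 10.2% of the 13828 covered events with a mean PSI of 5 to 95 and 0.440% of all 328992 covered events.

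The largest shift was in *Col13a1*. Exon MmuEX0012150 was included at 38.1, 39.5 and 37.8% at E15.5, 26.6, 25.9 and 24.7% at E18.5, 83.8, 84.2 and 84.9% at P5, and 90.7, 87.0 and 97.5% at P8, on 195 to 471 reads. Its mean was 58.5 points higher at P5 than at E18.5, and at E18.5 it was 12.7 points lower than at E15.5. The level of the gene was 1.23-fold higher at P5 than at E18.5 (log2 fold change 0.30). A further *Col13a1* exon, MmuEX0012146, was included at 76.1, 71.5 and 74.6% at E15.5, 69.3, 70.0 and 64.3% at E18.5, 93.8, 88.2 and 90.2% at P5, and 88.0, 82.8 and 91.4% at P8. Both exons of the gene therefore had higher inclusion after birth.

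The other 4 exons had lower inclusion after birth. In *Col6a3*, MmuEX0012337 was included at 62.9, 62.0 and 68.7% at E15.5, 56.0, 69.1 and 59.0% at E18.5, 31.5, 36.0 and 26.8% at P5, and 26.2, 20.7 and 31.0% at P8, a change of -29.9 points across birth. In *Col5a1*, MmuEX0012316 was included at 82.7, 93.3 and 79.0% at E15.5, 82.0, 85.0 and 75.5% at E18.5, 56.3, 54.4 and 54.1% at P5, and 50.1, 59.8 and 59.4% at P8, a change of -25.9 points. In level, neither gene passed the FDR threshold across birth (edgeR FDR = 0.2 and 0.59).

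In *Col16a1*, a FACIT chain, MmuEX0012167 was included at 91.3, 97.4 and 94.7% at E15.5, 83.8, 91.0 and 95% at E18.5, 75.7, 68.0 and 75.6% at P5, and 69.4, 72.1 and 66.3% at P8. The level of the gene was 139, 122 and 140.4 CPM at E15.5, then 128, 122 and 117 at E18.5, 129, 129 and 121 at P5, and 155, 151 and 158 at P8. Across birth the level of *Col16a1* passed no threshold (log2 fold change 0.05, edgeR FDR = 0.49), whereas the PSI of every postnatal library lay below that of every embryonic library. In *Col25a1*, MmuEX0012252 was included at 76.4, 100 and 94.1% at E15.5, 96.4, 73.6 and 96.9% at E18.5, 45.5, 43.2 and 30.2% at P5, and 42.7, 30.9 and 42.0% at P8. It is the least certain of the 6, with 30 to 90 reads per library, and the exact binomial 95% interval of its P8 replicate 1 ran from 25.5 to 62.6%. The widest such interval of the other 5 events was that of *Col6a3* in E15.5 replicate 2, 46.4 to 75.5% on 47 reads. These intervals cover counting error only.

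**Figure D5:**
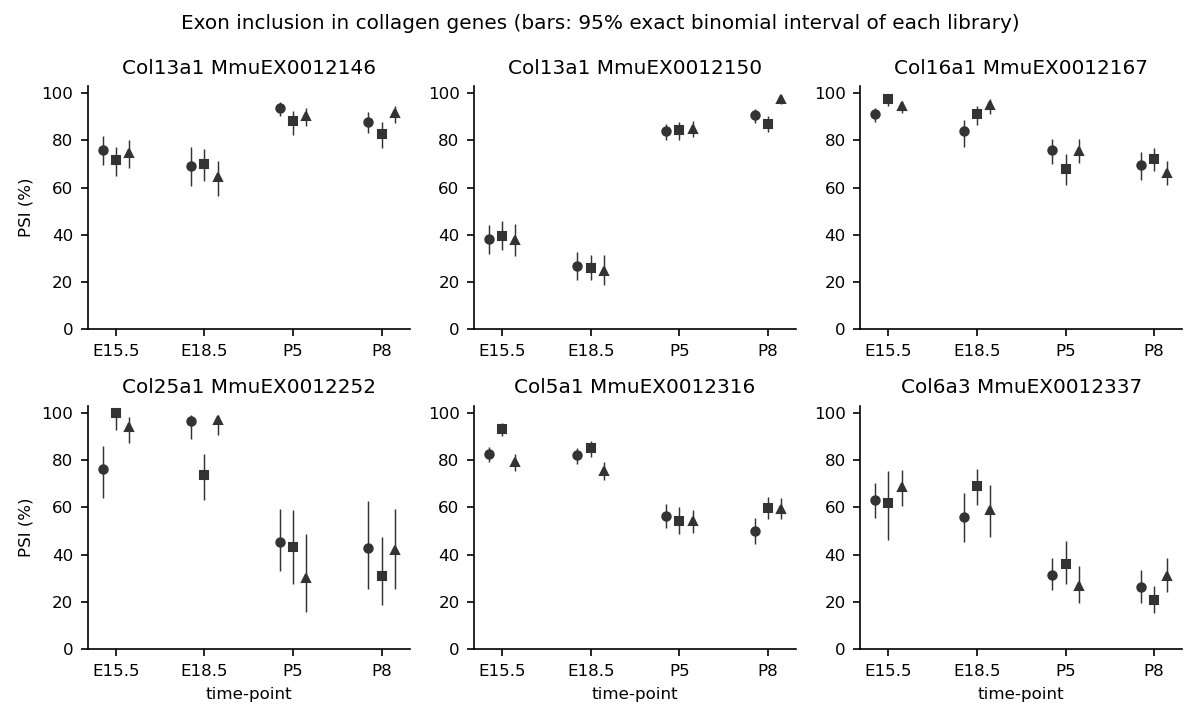
PSI in percent (y axis) of the 6 collagen exons in each library; circles, squares and triangles are replicates 1, 2 and 3 and bars the exact binomial 95% interval. The 2 *Col13a1* exons lie higher at P5 than at E18.5, by 22.9 and 58.5 points, and the other 4 lie lower, by 16.8 to 49.4 points.

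Collagen chains are hydroxylated, folded and glycosylated in the endoplasmic reticulum, trimmed outside the cell and then cross-linked. Of 38 genes of this pathway, 37 were tested (all but *Tll2*), and 10 passed both cutoffs from E18.5 to P5 (27.0%, against 26.8% of all genes), 6 higher and 4 lower. Both directions held cross-linking oxidases. *Lox*, a cross-linking oxidase, went from a mean of 758 to 175 CPM (log2 fold change -2.11 ± 0.09, edgeR FDR = 2.7e-09), *Adamts3*, a procollagen N-proteinase, fell by 1.59 and *P4ha1*, a subunit of prolyl hydroxylase, by 1.1. Those that rose were led by *Pcolce2*, an enhancer of C-propeptide removal (11.4 to 91.0 CPM, log2 fold change 2.99), *Colgalt2*, a collagen galactosyltransferase (2.80), and *Loxl1*, a further oxidase (2.0). Before birth and from P5 to P8 none of the 37 passed both cutoffs in edgeR (10 and 11 had an unadjusted p under 0.05) or in DESeq2.

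Of 12 collagen receptor genes, 11 were tested (all but *Gp6*), and 5 rose and none fell from E18.5 to P5 (45.5%, against 26.8% of all genes). *Cd36*, a scavenger receptor also present on capillary endothelium and macrophages, rose from a mean of 25 to 677 CPM (log2 fold change 4.76 ± 0.30), *Lair1*, an inhibitory receptor of leukocytes, from 0.477 to 7.05 CPM (3.88) and *Itga11*, an integrin chain of fibroblasts, from 0.953 to 2.47 CPM (1.37). The sum of the 4 macrophage markers was 37.4 to 42.3 CPM at E18.5 and 134.7 to 196 at P5, and its part in the receptor result was not tested. No receptor gene passed both cutoffs before birth or from P5 to P8 in edgeR (3 and 6 had an unadjusted p under 0.05) or in DESeq2.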

How the data were processed

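Whole lungs of 12 mice gave 12 libraries. The authors aligned reads to mm10 with TopHat2 2.1.1 and Bowtie2 2.3.4, counted them on Gencode vM14 genes with HTSeq 0.10.0 and deposited the raw counts of 16152 expressed genes. The authors also deposited CPM, each count divided by the mapped reads of its library, and PSI in percent from VAST-TOOLS with the reads of each event. Here the counts were tested with edgeR 4.0.16 (quasi-likelihood, TMM, 1 fit of all 12 libraries, requiring 1 CPM in 3 or more libraries), and DESeq2 1.42.0 was an alternative. The edgeR procedure was also run on simulated counts with changes planted in genes above a minimum level. Those counts held no litter effect and no difference in tissue content between libraries of a time-point, so that run covers neither. Deposited CPM was used for *Col19a1* only. Lengths (of the transcript with the longest coding sequence) and starts come from Gencode vM21. Events counted as covered had a PSI and a coverage score in every library and fewer than 3 libraries under 10 reads. Exons shared with other genes made up at most 6.07% of a member's exons. No 2 libraries of a time-point agreed within sampling noise.

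Members and lists were chosen with earlier results of these data known. By rule, library values were given for *Col1a1*, *Col1a2*, *Col3a1*, type IV and VI chains, genes with a splicing event, and the 3 largest increases and decreases called per comparison, and for the pathway lists the 3 largest changes each way across birth. Other genes named with values in single libraries (*Acan*, *Cnmd*, *Sox9*, *Chad*, *Matn4*, *Hapln1*, *Cav1*, *Ager*, *Aqp5*, *Epcam*, *Cdh1*, *Fn1*, *Pdgfra*, *Tcf21*, *Dcn*, *Lum*, *Des*, *Acta2*, *Col5a3*, *Col8a1*, *Col17a1* and *Col18a1*) were chosen after their values were seen. Exon positions of the splicing events were not used here.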

Additional observations from a re-analysis of the deposited data

Results flagged for a closer look

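*Col19a1*, a FACIT chain, is outside the comparisons because the counts table has no row for it, but its deposited CPM shows a signal above the 3 reads that a count of 0 allows. It was at 0.355, 0.197 and 0.118 CPM in the 3 E15.5 libraries, which correspond to 22, 10 and 6 reads. The other 9 libraries held 0 to 2 reads each, under that limit. No fold change is given, and the difference between time-points was not tested.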

How the results depend on the processing

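By FDR alone, without the fold change cutoff, counts are given in the order E15.5 to E18.5, E18.5 to P5, P5 to P8 and E15.5 to P8. They were 10, 32, 20 and 38 of 43 collagen genes, 8, 23, 8 and 26 of 37 biosynthesis genes and 3, 9, 3 and 10 of 11 receptor genes. Of all genes, 21.5%, 71.1% and 76.3% passed in the first, second and last comparison. From P5 to P8, 20 collagen, 7 biosynthesis and 1 receptor genes were higher, beside 9.75% of all genes. With both cutoffs, 8 of 37 biosynthesis genes (21.6%) and 6 of 11 receptor genes (54.5%) passed from E15.5 to P8, against 32.3% of all genes. With each library left out in turn, the collagen counts ranged from 0 to 4, 20 to 22, 3 to 12 and 17 to 19, the biosynthesis counts from 0 to 0, 10 to 11, 0 to 0 and 7 to 9, and the receptor counts from 0 to 0, 5 to 5, 0 to 0 and 5 to 6. Before birth the count of 2 collagen genes was 0 without E15.5 replicate 2, E18.5 replicate 1 or E18.5 replicate 2, 4 without E15.5 replicate 1, and 1 without P8 replicate 2 or any 1 P5 library. Without P8 replicates 1 and 2, a setting chosen after seeing the data, the P5 to P8 count was 0 and the log2 fold changes of *Col11a2* (-0.052), *Col17a1* (-0.0043) and *Col2a1* (-0.79) reversed, as did that of *Col17a1* from E15.5 to P8 (-0.37). The cause was not tested.

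Of the 48 calls of single collagen genes, 11 were lost in at least 1 of the 12 fits that left out a library. All 48 held with DESeq2 and without the filter on low counts, and 47 held with library size scaling and with the replicate number as a block, where *Col8a1* from E15.5 to P8 was the 1 lost. Fits of only the libraries compared gave 47 of the calls a value, and lost *Col2a1* from P5 to P8. The replicate numbers do not pair the libraries, since same-numbered libraries correlated between -0.298 and 0.271 and the others between -0.282 and 0.241, and the replicate block left the collagen counts at 2, 21, 8 and 17. For PSI, the change of the *Col25a1* exon MmuEX0012252 from P5 to P8 went from -1.11 to -14.63 points when only libraries with better than low coverage were used. Genes at a few CPM or less, such as *Col10a1*, *Col20a1* and *Col6a5*, rest on the fewest reads.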
